A study of Mus musculus with 39 samples.

Results

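The guanylate-binding proteins (GBPs) are large GTPases whose genes are switched on by interferons, above all by interferon-gamma. They are known to assemble on the membranes of vacuoles that hold pathogens and on bacteria in the cytosol, where they help to break the vacuole open and to start inflammasome signalling. Dendritic cells (DC) carry antigen to lymph nodes and present it to T cells, and an interferon programme that includes the GBP genes is a known feature of their activation. Mouse GBP genes lie in a cluster on chromosome 3 and another on chromosome 5.

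The 8 genes described here are Gbp2, Gbp3, Gbp4, Gbp5, Gbp6, Gbp7, Gbp8 and Gbp9, taken by symbol. They are 8 of the 24421 rows of the time course and costimulation tables, 8 of 24411 rows of the 5-replicate table and 8 of 7830 rows of the T cell table. All 8 were found in all 4 tables. Gbp2, Gbp3, Gbp5 and Gbp7 are on chromosome 3, and Gbp4, Gbp6, Gbp8 and Gbp9 on chromosome 5. Gbp2b, Gbp10 and Gbp11, further loci of the family, are described only beside them.

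The study sequenced RNA from sorted DC, and from CD4+ OT-II T cells, of popliteal and inguinal lymph nodes of C57BL/6 mice aged 8 to 12 weeks that had been injected in the hock with nanoparticles (NP). OT-I and OT-II T cells carry receptors for peptides of ovalbumin (OVA), and the series describes mice engrafted with them. CpG is DNA that stimulates Toll-like receptor 9, and bovine serum albumin (BSA) is a protein that these T cells do not recognise. The time course held DC after NP with OVA and CpG at 12 h and 24 h, after NP with CpG alone at 12 h and 24 h, and from non-immunized mice, with 2 libraries each. The 5-replicate experiment held DC 20 h after NP with OVA and CpG, 20 h after NP with BSA and CpG, and from non-immunized mice, with 5 libraries each. The costimulation experiment, at 12 h, held DC labelled Cd80/86 -/- given OVA with OT cells, and wild-type DC given OVA with OT cells, OVA with no OT cells named in the label, and BSA with OT cells, with 2 libraries each. Its labels do not name CpG. The T cell experiment held OT-II cells 20 h after NP with OVA and CpG or with BSA and CpG, with 3 libraries each. The labels do not say per library whether the time course and 5-replicate mice carried OT cells, nor whether libraries came from separate animals, so p-values measure the spread between these libraries, which may be technical.

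Libraries held 612017 to 1329203 gene counts in the time course, 628404 to 1621784 in the costimulation experiment, 367209 to 2052904 in the 5-replicate experiment and 155088 to 1316341 in the T cells. DC values below are CPM, a gene's count scaled to 1000000 counts of its own library, and T cell values are the deposited normalized counts. Tests of DC are edgeR's quasi-likelihood tests over all genes of an experiment, with Benjamini-Hochberg adjusted p, and a gene is said to have risen or fallen where that p was under 0.05. Conventional DC markers summed to 2671 to 12272 CPM in the time course libraries and to 16343 to 29291 CPM in the 5-replicate libraries. T cell markers, with 12 of 12 detected, summed to 1627 to 5537 CPM in the time course DC, against 4367 to 6732 CPM in the T cell libraries. The non-immunized time course DC were at the upper end of the former range and within the latter. The conventional DC marker sums of the time course and T cell libraries also overlapped, so these sums alone do not tell them apart. In bulk RNA, a change in the share of a cell type and a change in RNA per cell cannot be told apart.

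The 4 members on chromosome 3 have RefSeq promoter windows in GRCm38.p6, from 250 bases before to 50 after a transcript start. They are shown because interferon acts on such genes through short elements near the start. Capitals mark the core of an interferon-stimulated response element, which is GAAA, 2 bases of any kind and GAAA again, on either strand, and TTCNNNGAA, the core of a gamma-activated site, which reads the same on both strands. All windows are on the plus strand, at chr3:142620413-142620712 for Gbp2, chr3:142559794-142560093 for Gbp3, chr3:142496684-142496983 for Gbp5 and chr3:142530086-142530385 for Gbp7.
Gbp2: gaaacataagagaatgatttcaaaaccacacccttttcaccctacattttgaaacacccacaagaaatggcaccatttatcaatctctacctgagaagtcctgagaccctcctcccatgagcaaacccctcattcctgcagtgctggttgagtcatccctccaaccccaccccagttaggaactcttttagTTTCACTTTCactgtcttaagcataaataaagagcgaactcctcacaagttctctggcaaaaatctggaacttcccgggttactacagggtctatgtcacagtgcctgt
Gbp3: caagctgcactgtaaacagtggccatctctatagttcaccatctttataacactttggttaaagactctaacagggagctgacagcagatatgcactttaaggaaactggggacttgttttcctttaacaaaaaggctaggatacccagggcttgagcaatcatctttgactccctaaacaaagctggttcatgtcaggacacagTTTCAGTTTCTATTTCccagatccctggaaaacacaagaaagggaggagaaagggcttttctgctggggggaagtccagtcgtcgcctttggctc
Gbp5: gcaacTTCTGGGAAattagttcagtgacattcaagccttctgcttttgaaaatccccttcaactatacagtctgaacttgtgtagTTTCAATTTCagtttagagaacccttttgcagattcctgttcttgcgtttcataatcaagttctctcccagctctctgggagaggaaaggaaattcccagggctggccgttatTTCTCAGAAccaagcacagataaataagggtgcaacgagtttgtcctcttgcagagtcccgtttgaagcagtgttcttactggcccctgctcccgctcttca
Gbp7: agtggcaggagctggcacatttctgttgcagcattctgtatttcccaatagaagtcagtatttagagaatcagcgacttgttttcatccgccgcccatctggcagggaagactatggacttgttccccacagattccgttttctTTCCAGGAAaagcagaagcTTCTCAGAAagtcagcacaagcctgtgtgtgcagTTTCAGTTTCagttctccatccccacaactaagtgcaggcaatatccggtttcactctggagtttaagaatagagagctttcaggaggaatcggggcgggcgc
The Gbp2 window held 1 response element core, beginning 59 bases before the start. The Gbp3 window held 2 overlapping cores, beginning 45 and 39 bases before the start, and a second Gbp3 window at chr3:142560106-142560405 held neither motif. The Gbp5 window held 1 response element core at 165 bases and 2 gamma-activated site cores at 245 and 52 bases, and the Gbp7 window held 1 response element core at 53 bases and 2 gamma-activated site cores at 106 and 87 bases. Of all 32851 mouse windows of this length, 3.44% held the response element core and 8.30% held TTCNNNGAA. These are matches of letters, and no binding was measured. Gbp4, Gbp6, Gbp8 and Gbp9 are named only.

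All 8 members rose in DC of the time course after NP with OVA and CpG, at 12 h and at 24 h, against non-immunized DC. After NP with CpG alone, 7 rose at 12 h and all 8 at 24 h. The background was 9.56% of 9428 genes higher for OVA and CpG at 12 h, 10.2% at 24 h, and 11.6% and 7.96% for CpG alone at 12 h and 24 h. The median log2 change of the 8 members was 2.39 for OVA and CpG at 12 h and 2.02 at 24 h, and 1.38 and 2.33 for CpG alone, while the median over all genes tested lay between -0.03 and 0.00 in these 4 comparisons.

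Gbp2, which coats vacuoles of the parasite Toxoplasma in mouse cells, was at 1199.8 and 991 CPM after OVA and CpG at 12 h and at 1122 and 836 CPM at 24 h. It was at 599 and 545 CPM after CpG alone at 12 h and at 1145 and 1009.6 CPM at 24 h, against 137 and 127 CPM in non-immunized DC. Every immunized library lay above both non-immunized ones. Its log2 change from non-immunized DC was 3.28 (SE 0.22, adjusted p = 1.38e-07), or 9.70-fold, for OVA and CpG at 12 h.

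Gbp3, also on chromosome 3, was at 417 and 361 CPM after OVA and CpG at 12 h and 327 and 243 CPM at 24 h. It was at 223 and 142 CPM after CpG alone at 12 h and 242 and 232 CPM at 24 h, against 48.1 and 54.8 CPM in non-immunized DC. The groups did not overlap with non-immunized DC, and the change at 12 h after OVA and CpG was 8.87-fold (log2 3.15, SE 0.25, adjusted p = 3.83e-07).

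Gbp5, which promotes assembly of the NLRP3 inflammasome in mouse cells, was at 253 and 256 CPM after OVA and CpG at 12 h and 422 and 158 CPM at 24 h. It was at 189 and 194 CPM after CpG alone at 12 h and 302 and 188 CPM at 24 h, against 29.4 and 33.2 CPM in non-immunized DC. Its replicates at 24 h were far apart, yet all immunized libraries were high. Its change at 24 h after OVA and CpG was 10.9-fold (log2 3.45, SE 0.40), and log2 2.51 without replicate 1 and 4.03 without replicate 2 of that group.

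Gbp7, known in mice to restrict bacteria and Toxoplasma, was at 1375 and 1643 CPM after OVA and CpG at 12 h and 1532 and 1243 CPM at 24 h. It was at 812 and 691 CPM after CpG alone at 12 h and 2185 and 1646 CPM at 24 h, against 442 and 436 CPM in non-immunized DC. Its highest libraries were those of CpG alone at 24 h. The log2 change was 2.01 (SE 0.21, adjusted p = 6.03e-06) for OVA and CpG at 12 h and 2.33 for CpG alone at 24 h.

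On chromosome 5, Gbp4 was at 1184 and 1226 CPM after OVA and CpG at 12 h and 1059 and 975 CPM at 24 h. It was at 647 and 485 CPM after CpG alone at 12 h and 1072 and 1228 CPM at 24 h, against 362 and 321 CPM in non-immunized DC. The non-immunized libraries were the lowest, and CpG alone at 12 h lay between them and the rest. Gbp9, which is recruited to Toxoplasma vacuoles in mouse cells, was at 384 and 345 CPM after OVA and CpG at 12 h and 338 and 336 CPM at 24 h. It was at 201 and 199.96 CPM after CpG alone at 12 h and 348 and 395 CPM at 24 h, against 106 and 92.5 CPM in non-immunized DC. As for Gbp4, CpG alone at 12 h lay between the non-immunized libraries and the rest, and the log2 changes for OVA and CpG at 12 h were 2.05 (SE 0.19) for Gbp4 and 2.10 (SE 0.19) for Gbp9.

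Gbp6 was at 125 and 134 CPM after OVA and CpG at 12 h and 92.1 and 78.5 CPM at 24 h. It was at 53.0 and 65.7 CPM after CpG alone at 12 h and 123 and 87.3 CPM at 24 h, against 26.1 and 20.6 CPM in non-immunized DC. Its counts may be affected by shared sequence. Of the 50-base words of its whole GENCODE M21 transcripts, 49.3% also occur in transcripts of other genes of the family, 44.6% in Gbp10 alone. Whether reads fell in these stretches, and how they were assigned, was not examined. For the other members this share was between 0 for Gbp5 and 17.4% for Gbp8.

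Gbp8 moved least. It was at 557 and 628 CPM after OVA and CpG at 12 h and 550.1 and 567.8 CPM at 24 h. It was at 353 and 295 CPM after CpG alone at 12 h and 556 and 604 CPM at 24 h, against 304 and 283 CPM in non-immunized DC. CpG alone at 12 h overlapped with non-immunized DC, with a log2 difference of 0.36 (95% interval -0.02 to 0.74, adjusted p = 0.201), and Gbp8 was the member that did not pass in that comparison. It rose 2.36-fold (log2 1.24, SE 0.18, adjusted p = 0.000143) after OVA and CpG at 12 h. The smallest changes among the other 7 members for CpG alone at 12 h were those of Gbp4 (log2 0.94, adjusted p = 0.00263) and Gbp7 (log2 0.99, adjusted p = 0.00337). Without non-immunized replicate 2 neither passed, with adjusted p of 0.0606 for Gbp4 and 0.0522 for Gbp7, and 5 members were left.

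Markers of other cells also differed between these groups, and their part in the rise was not tested. T cell markers summed to 2585 to 2733 CPM after OVA and CpG at 12 h and to 1627 to 2291 CPM after CpG alone at 12 h, against 5258 to 5537 CPM in non-immunized DC. Neutrophil markers, with 11 of 11 detected after immunization, summed to 2486 to 2502 CPM after OVA and CpG at 12 h and to 14221 to 18071 CPM after CpG alone at 12 h, against 145 to 197 CPM in non-immunized DC, where Retnlg was at 0.

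**Figure D1:**
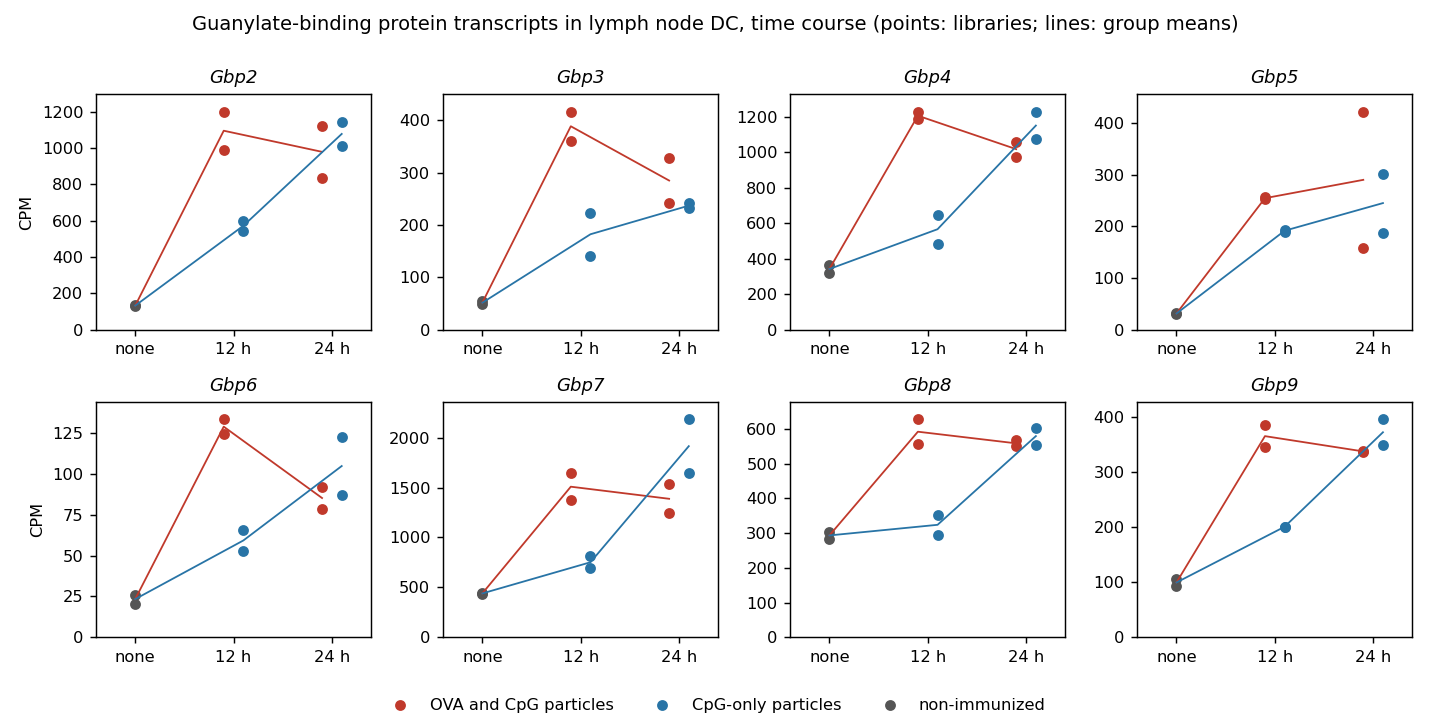
Level of each of the 8 members in every time course library, in CPM (vertical axis from 0), in non-immunized DC and at 12 h and 24 h after immunization (horizontal axis). Points are libraries, lines join the means of 2 libraries, red is OVA and CpG, blue is CpG alone and grey is non-immunized. At 12 h Gbp2 is at 1199.8 and 991 CPM in red, against 599 and 545 CPM in blue, and at 24 h its red and blue points overlap. With 2 libraries per group, separation of the points is not a test of a difference.

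The comparison of OVA and CpG with CpG alone asks what antigen adds to the adjuvant. At 12 h, 7 of 8 members were higher with OVA (background 0.753% of 9428 genes higher), and Gbp5 was the exception. The log2 differences of the 7 lay between 0.88 and 1.14, with a median over all 8 of 0.98 against 0.01 for all genes tested. Gbp4 differed by 1.10 (SE 0.19, adjusted p = 0.00521) and Gbp6 by 1.14 (SE 0.25, adjusted p = 0.0197). Gbp2 differed by 0.95 (SE 0.20, adjusted p = 0.0182) and Gbp8, with the smallest response to CpG alone at this time, by 0.88 (adjusted p = 0.0136). Gbp5 differed by 0.42, with a 95% interval of -0.31 to 1.16 (edgeR adjusted p = 0.717).

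The count of 7 rested on both libraries of each group. It was 4 without replicate 1 of CpG alone at 12 h, and 0 without replicate 2 of that group, without replicate 1 of OVA and CpG at 12 h or without replicate 2 of that group. In each of these cases all 8 members kept a positive difference, between 0.395 and 1.46 on the log2 scale, and the share of all genes called in either direction was 0.239% to 1.70%, against 2.46% with all libraries. Marker sums of other cells also differed between the 2 groups. Migratory DC markers, with 8 of 8 detected, summed to 844 to 1017 CPM with OVA and 3086 to 3404 CPM with CpG alone. Neutrophil markers summed to 2486 to 2502 CPM and 14221 to 18071 CPM. Plasmacytoid DC markers, with 6 of 8 detected, summed to 1874 to 2240 CPM and 1215 to 1365 CPM. Siglech was at 0 in both groups, Klk1 at 0 with OVA and Cox6a2 at 0 with CpG alone, so this sum does not establish these cells. The part of other cells in the difference was not tested.

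At 24 h no member differed between OVA and CpG and CpG alone by edgeR's quasi-likelihood test (background 0% of 9428 genes, 959 at an unadjusted p under 0.05; DESeq2 called 29 genes and 0 members). The log2 differences lay between -0.45 for Gbp7 (95% interval -0.88 to -0.02, adjusted p = 0.469) and 0.30 for Gbp5. Of the 8, only Gbp7 had an unadjusted p under 0.05. The intervals of the other members reached across 0. Without replicate 1 of CpG alone at 24 h, 4.53% of genes and 0 members were called.

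After CpG alone, 5 of 8 members were higher at 24 h than at 12 h (background 3.36% higher): Gbp2 by 0.90 (adjusted p = 0.012), Gbp4 by 1.01 (adjusted p = 0.00366), Gbp7 by 1.34 (SE 0.21, adjusted p = 0.000819), Gbp8 by 0.82 (adjusted p = 0.00891) and Gbp9 by 0.88 (adjusted p = 0.00643), on the log2 scale. Gbp6 differed by 0.79 (adjusted p = 0.0708), Gbp3 by 0.35 and Gbp5 by 0.32. Only Gbp7 passed with the fit limited to these 2 groups and without replicate 2 of CpG alone at 12 h, and 3 members passed without replicate 1 of that group. After OVA and CpG no member differed between 24 h and 12 h by edgeR's test (background 8.90% of genes in either direction), and DESeq2 also called 0 members. By edgeR 1 member had an unadjusted p under 0.05, against 2138 of 9428 genes. The log2 differences lay between -0.61 for Gbp6 (edgeR adjusted p = 0.131) and 0.19 for Gbp5.

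The change in the OVA effect itself, the difference at 24 h minus that at 12 h, was below 0 for all 8 members. It passed the test for 4 of them (background 0.689% of genes lower): Gbp7 at -1.46 (SE 0.29, adjusted p = 0.00845), Gbp4 at -1.26 (SE 0.27, adjusted p = 0.0126), Gbp9 at -1.01 (SE 0.25, adjusted p = 0.0333) and Gbp6 at -1.39 (SE 0.35, adjusted p = 0.0336). Gbp2 was at -1.07 (adjusted p = 0.0511), Gbp8 at -0.92 (adjusted p = 0.0542), Gbp3 at -0.81 (adjusted p = 0.233) and Gbp5 at -0.13 (adjusted p = 0.944). Of these 4, Gbp4, Gbp6 and Gbp9 are on chromosome 5. The count was 2 without replicate 1 and 0 without replicate 2 of CpG alone at 12 h, 1 without replicate 1 and 0 without replicate 2 of OVA and CpG at 12 h, and 1 without replicate 2 of OVA and CpG at 24 h.

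**Figure D2:**
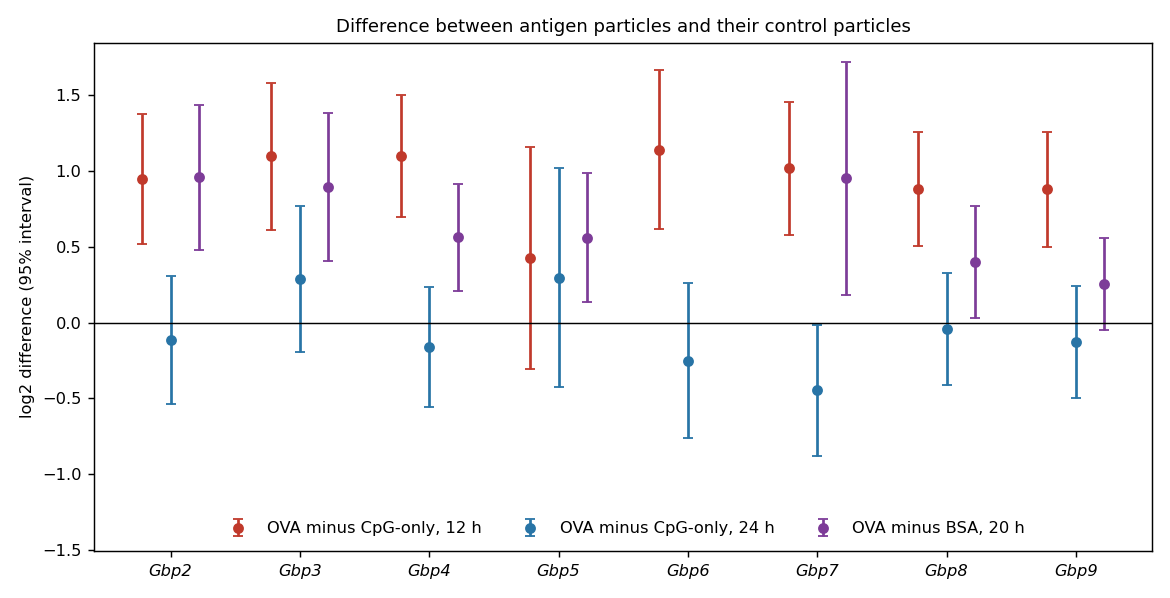
Log2 difference between OVA with CpG and its comparison group for each member, with 95% intervals: against CpG alone at 12 h and 24 h in the time course, and against BSA with CpG at 20 h in the 5-replicate experiment. The 12 h differences of 7 members lie between 0.88 and 1.14, those at 24 h lie around 0, and those at 20 h lie between 0.25 and 0.96.

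In the 5-replicate experiment, 7 members were tested, since Gbp6 had too few counts, at 0.638 to 6.54 CPM after OVA and CpG, 0.757 to 4.15 CPM after BSA and CpG and 0 to 1.33 CPM in non-immunized DC. Levels in non-immunized DC differed from those of the time course. Gbp6 and Gbp7 were far lower here and Gbp5 was higher, and the cause was not tested. At 20 h, 5 of the 7 were higher after OVA and CpG than in non-immunized DC (background 9.59% of 9159 genes higher), and 3 of the 7 were higher after BSA and CpG (background 3.68%). The members that rose after OVA and CpG were Gbp2, Gbp3, Gbp4, Gbp5 and Gbp7. After BSA and CpG they were Gbp2, Gbp3 and Gbp5.

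Gbp2 was at 502, 763, 846, 810.2 and 299 CPM after OVA and CpG, at 424, 222, 369, 271 and 355 CPM after BSA and CpG, and at 164, 212, 114, 168 and 164 CPM in non-immunized DC. Both immunized groups lay above the non-immunized one, and OVA replicate 5 lay within the BSA range. Its log2 change was 2.09 (SE 0.24, adjusted p = 1.38e-05), or 4.27-fold, after OVA and CpG and 1.13 (SE 0.24, adjusted p = 0.00811) after BSA and CpG.

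Gbp3 was at 159, 189.7, 284, 233 and 104 CPM after OVA and CpG, at 129.6, 71.6, 147, 84.4 and 85.5 CPM after BSA and CpG, and at 69.0, 77.6, 70.8, 43.9 and 61.6 CPM in non-immunized DC. The OVA libraries lay above all non-immunized ones, and the BSA libraries overlapped with both. Its log2 change was 1.75 (adjusted p = 9.63e-05) after OVA and CpG and 0.86 after BSA and CpG, where the adjusted p of 0.04995 was just under the threshold. Gbp5 was at 243, 437, 429, 521 and 266 CPM after OVA and CpG, at 339, 196, 304, 229 and 211 CPM after BSA and CpG, and at 141, 208, 149.8, 143 and 168 CPM in non-immunized DC. Replicate 2 of the non-immunized DC lay within the BSA range, and the log2 changes were 1.37 (adjusted p = 0.000181) after OVA and CpG and 0.81 (adjusted p = 0.0265) after BSA and CpG.

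Gbp7 was at 104, 100.3, 36.0, 73.7 and 26.8 CPM after OVA and CpG, at 42.4, 13.4, 46.4, 35.0 and 33.3 CPM after BSA and CpG, and at 15.3, 17.5, 38.1, 7.93 and 7.29 CPM in non-immunized DC. The groups overlapped, through OVA replicates 3 and 5 and non-immunized replicate 3. Its log2 change was 2.39 (SE 0.44, adjusted p = 0.000763), or 5.26-fold, after OVA and CpG and 1.44 (SE 0.45, adjusted p = 0.0658) after BSA and CpG.

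On chromosome 5, Gbp4 averaged 288 ± 84.0 CPM after OVA and CpG, 195 ± 13.2 CPM after BSA and CpG and 179.7 ± 29.5 CPM in non-immunized DC (SD, n = 5 each), with a log2 change of 0.81 for OVA and CpG (edgeR adjusted p = 0.00264). Gbp8 averaged 334 ± 109.7 CPM after OVA and CpG, 253 ± 28.7 CPM after BSA and CpG and 342 ± 49.4 CPM in non-immunized DC, and its groups overlapped. Gbp9 averaged 136 ± 30.5 CPM after OVA and CpG, 115 ± 10.4 CPM after BSA and CpG and 118 ± 13.8 CPM in non-immunized DC. Neither of these last members passed, with log2 differences for OVA and CpG of 0.10 for Gbp8 (edgeR adjusted p = 0.741) and 0.35 for Gbp9 (edgeR adjusted p = 0.118). The mean CPM of Gbp8 was slightly lower after OVA and CpG, while its log2 difference was above 0. CPM uses library totals only, and edgeR's log2 values also use its TMM scaling of libraries. The median log2 change after OVA and CpG was 1.92 over the 4 members on chromosome 3, all of which passed, and 0.35 over the 3 tested on chromosome 5, of which 1 passed. Gbp6, on chromosome 5 and outside the main test, was at 1.87 with no filter on low counts (adjusted p = 0.15), on averages of 2.71 CPM after OVA and CpG and 0.539 CPM in non-immunized DC.

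The count of 5 after OVA and CpG was the same without any 1 library. The count of 3 after BSA and CpG lay between 1 and 4. Gbp3 lost its call there without any of the 5 non-immunized replicates and without BSA replicate 1, 3, 4 or 5, Gbp5 lost it without non-immunized replicate 1, 3, 4 or 5 or BSA replicate 1 or 3, and Gbp7 gained one without non-immunized replicate 3 or BSA replicate 2. Monocyte and macrophage markers, with 12 of 13 detected in every group, summed to 150 to 332 CPM after OVA and CpG and to 226 to 383 CPM after BSA and CpG, against 735 to 2285 CPM in non-immunized DC, and the part of these cells in the change was not tested. In 5 of the 15 libraries Y-linked transcripts summed to over 20 CPM. With a term for them the members called stayed at 5 and 3, while all genes called for BSA and CpG numbered 187 against 499.

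Between OVA and BSA at 20 h no member passed by edgeR's quasi-likelihood test (background 0% of 9159 genes, 561 at an unadjusted p under 0.05; DESeq2 also called 0). All 7 differences were positive, between 0.25 for Gbp9 and 0.96 for Gbp2 (95% interval 0.48 to 1.44, adjusted p = 0.528), and 6 had an unadjusted p under 0.05. Without OVA replicate 5, the lowest OVA library for Gbp2, Gbp3, Gbp4, Gbp7, Gbp8 and Gbp9, Gbp2 passed with a log2 difference of 1.13 (adjusted p = 0.0399), 1 of 4 genes called in that fit (0.0432%). The authors' deposited table lists 1 member for this comparison, Gbp2, with a log2 change of 0.97 and an adjusted p of 0.0421.

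**Figure D3:**
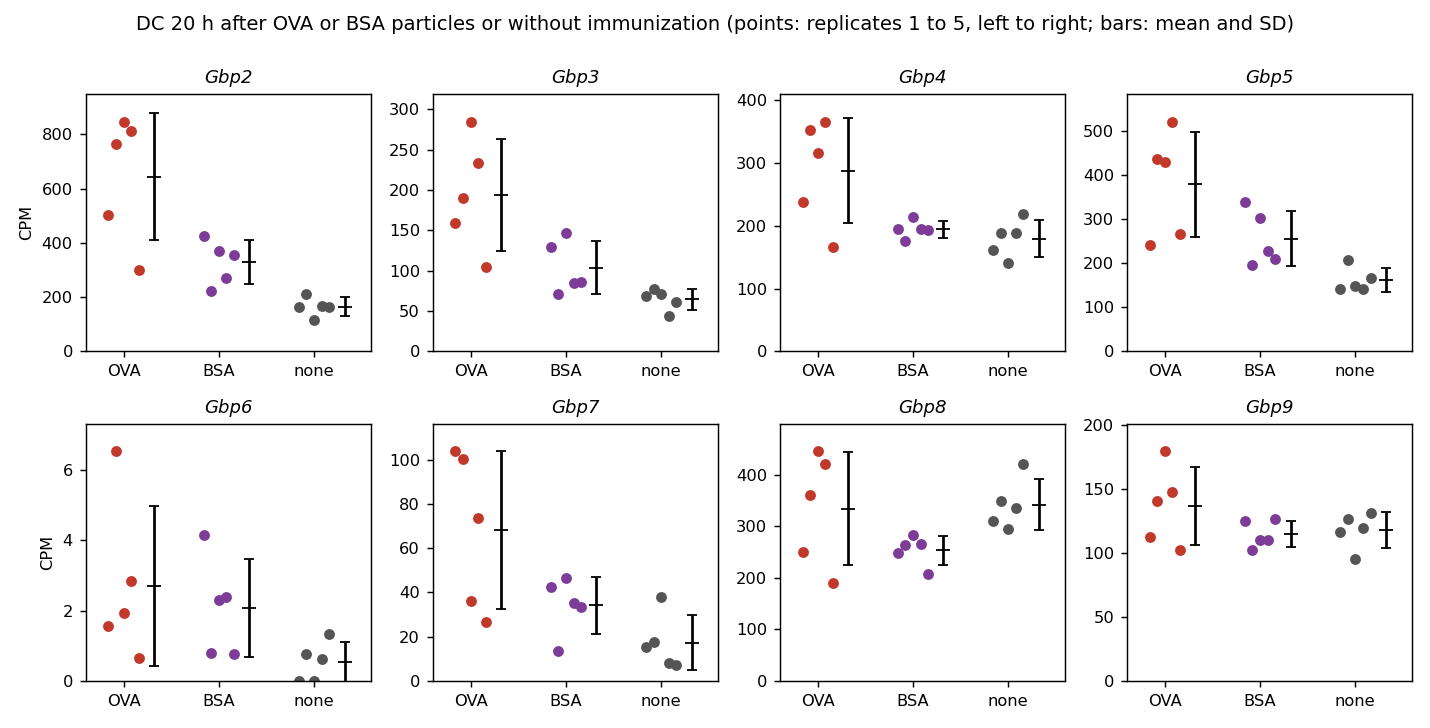
Level of each member in the 15 libraries of the 5-replicate experiment, in CPM on vertical axes from 0. Points are libraries, and the black marks are the mean and SD of 5 libraries of OVA with CpG, BSA with CpG and non-immunized DC. Gbp2 averages 644 ± 235 CPM, 328 ± 80.6 CPM and 164 ± 34.4 CPM in these groups, while those of Gbp8 and Gbp9 overlap.

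**Figure D4:**
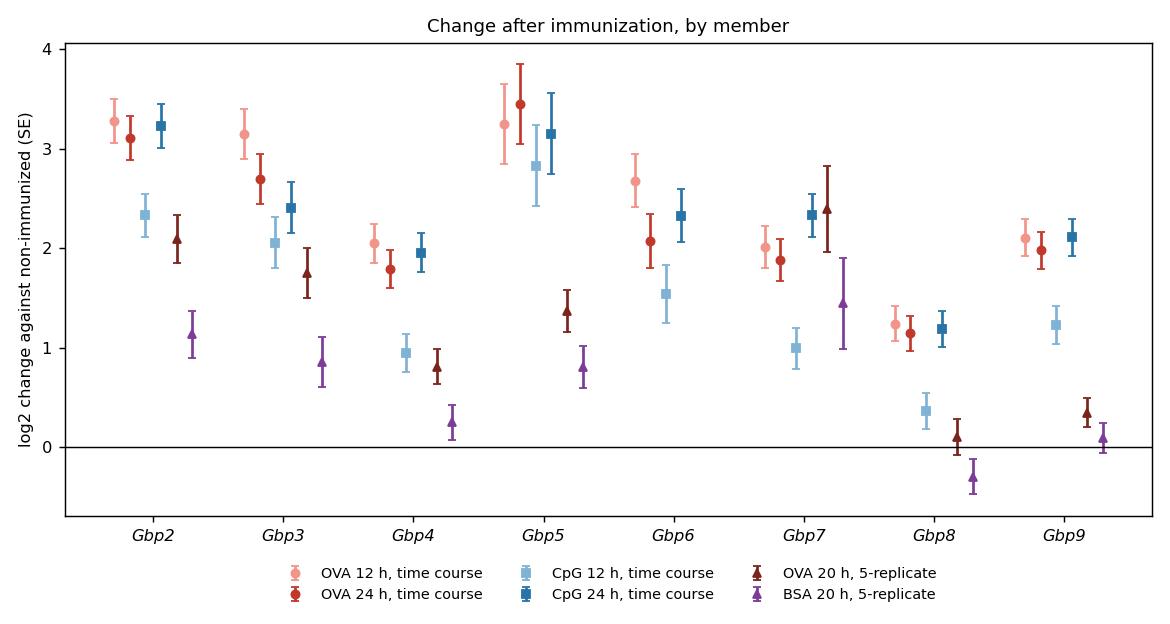
Log2 change of each member from non-immunized DC of the same experiment with its SE, for CpG alone and OVA with CpG at 12 h and 24 h, and BSA with CpG and OVA with CpG at 20 h. Gbp2 is at 3.28 at 12 h and 2.09 at 20 h after OVA and CpG, and Gbp8 is the lowest member at 12 h with 1.24 and at 20 h with 0.10.

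The costimulation experiment asked whether DC that lack CD80 and CD86, the ligands that T cells read through CD28, respond differently. Cd80 was at 4.23 and 12.4 CPM in the libraries labelled Cd80/86 -/-, against 11.4 and 10.0 CPM in wild-type DC with OVA and OT cells. Cd86 was at 37.4 and 48.5 CPM in the libraries labelled Cd80/86 -/-, against 81.5 and 82.6 CPM in the wild type. Counts remained in both, and since the deleted part of each gene is not given in the sources used here, they do not check the genotype.

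No member differed between the libraries labelled Cd80/86 -/- and the wild type by edgeR's quasi-likelihood test (background 0% of 9355 genes, 1068 at an unadjusted p under 0.05; DESeq2 called 48 genes and 0 members), and 0 members had an unadjusted p under 0.05. Gbp2 was at 1153 and 732 CPM in the libraries labelled Cd80/86 -/-, against 506 and 391.8 CPM in the wild type. The groups did not overlap, and the log2 difference was 1.01 (95% interval -0.12 to 2.14, adjusted p = 0.483). Gbp3 was at 535 and 331 CPM in the libraries labelled Cd80/86 -/-, against 249.8 and 210.3 CPM in the wild type, and Gbp7 at 774 and 458 CPM against 308 and 356 CPM. With the fit limited to these groups these 3 members passed, with adjusted p of 0.0152 for Gbp2, 0.0391 for Gbp3 and 0.049 for Gbp7, while 8.01% of 8473 genes were called in that fit. Gbp8 was lower, at 101 and 133 CPM in the libraries labelled Cd80/86 -/-, against 199.6 and 125 CPM in the wild type (log2 -0.55). Monocyte and macrophage markers, with 12 of 13 detected, summed to 7826 to 9535 CPM in the libraries labelled Cd80/86 -/-, against 4944 to 4964 CPM in the wild type, and plasmacytoid DC markers, with 8 of 8 detected, to 2631 to 2676 CPM against 1060 to 1112 CPM, and their part was not tested.

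With OVA, DC from mice with OT cells had 1 member below DC whose label names no OT cells (background 1.33% of genes lower). It was Gbp6, at 17.5 and 11.3 CPM with OT cells, against 56.7 and 41.2 CPM without (log2 -1.68, SE 0.37, adjusted p = 0.0422). Gbp6 shares sequence with Gbp10, as above, and the call was lost in DESeq2 (adjusted p = 0.107) and without either OT replicate or replicate 1 of the group without OT cells, while the log2 difference stayed between -2.03 and -1.36 in the alternatives. The authors' deposited table lists Gbp6 here with a log2 change of -1.55 and an adjusted p of 0.0408. Gbp4 was at 252 and 178 CPM with OT cells, against 515 and 456 CPM without (log2 -1.12, adjusted p = 0.232), and Gbp7 at 308 and 356 CPM against 776 and 579 CPM (log2 -0.97). All 8 differences were below 0. NK cell markers, with 7 of 7 detected in both groups, summed to 98 to 235 CPM with OT cells, against 2334 to 5860 CPM without, and CD8 T cell and cytotoxic markers, with Gzmk at 0 in both groups and the other 5 of 6 detected, to 220 to 430 CPM, against 2993 to 7059 CPM without. Ifng, the interferon that induces the family, averaged 11.4 CPM with OT cells, against 1440 CPM without (log2 -6.72, adjusted p = 0.0454). The part of these cells in the difference was not tested.

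Between OVA and BSA, both with OT cells, no member passed by edgeR's quasi-likelihood test (background 0.0107% of genes, which is 1 gene; 850 at an unadjusted p under 0.05; DESeq2 called 12 genes and 0 members), and Gbp7 alone had an unadjusted p under 0.05. The log2 differences lay between -0.02 for Gbp8 and 1.27 for Gbp7. Gbp7 was at 308 and 356 CPM with OVA, against 221 and 63.7 CPM with BSA (95% interval 0.12 to 2.43, adjusted p = 0.509). The BSA replicates were far apart for most members, with Gbp2 at 606 and 192 CPM and Gbp5 at 286 and 71.9 CPM. Without BSA replicate 1, Gbp5 and Gbp7 passed, and 1.94% of genes were called.

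**Figure D5:**
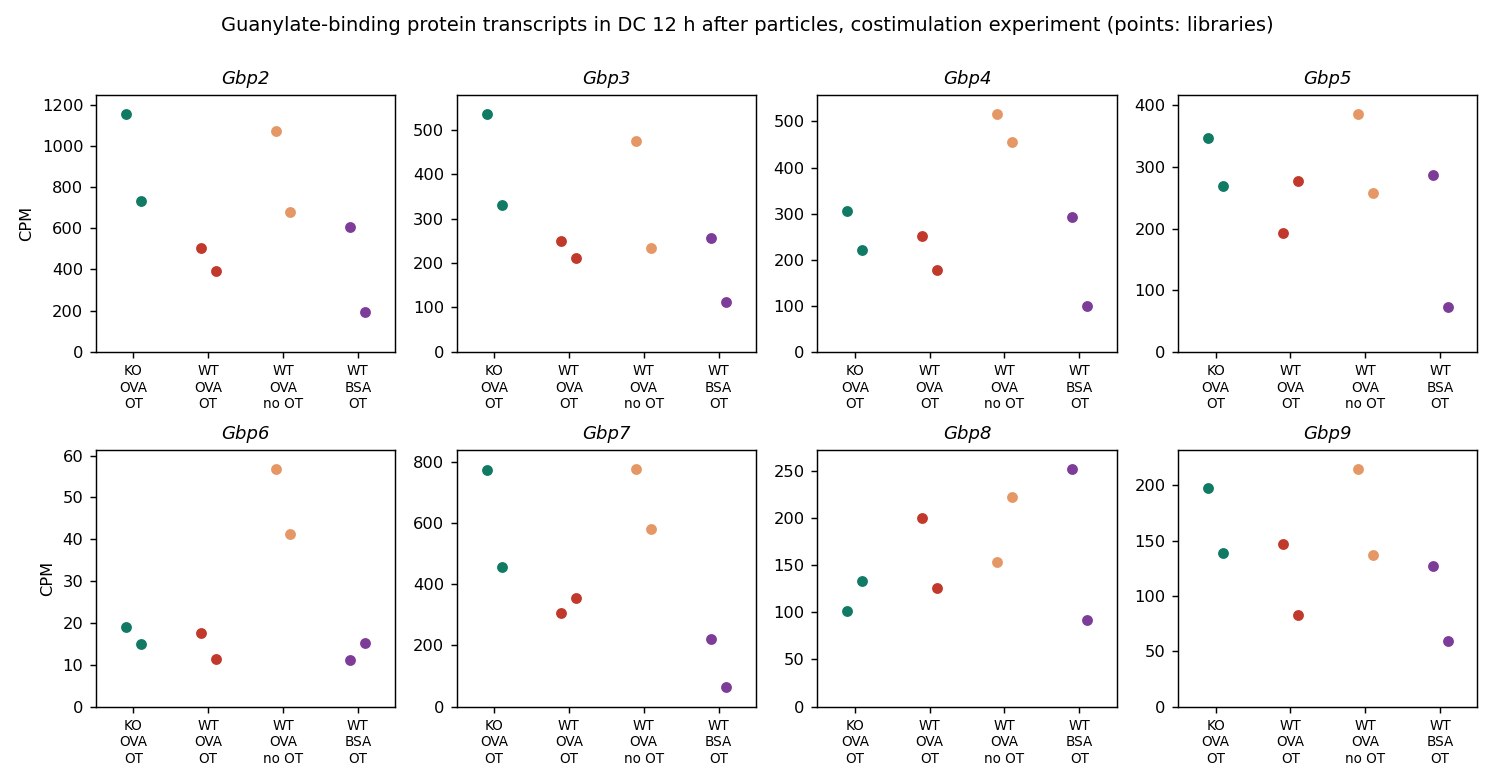
Level of each member in the 8 libraries of the costimulation experiment, in CPM on vertical axes from 0, for Cd80/86 -/- with OVA and OT cells and for wild type with OVA and OT cells, with OVA and no OT cells named, and with BSA and OT cells. Points are libraries. Gbp6 is at 17.5 and 11.3 CPM in wild type with OVA and OT cells and at 56.7 and 41.2 CPM with OVA and no OT cells named.

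In OT-II T cells no member passed between OVA and BSA by limma on log2(normalized count + 1) (background 15.9% of 6452 genes in either direction). An unadjusted p under 0.05 was reached by 2 of 8 members, against 2112 of the 6452 genes. Gbp8 was at 67.2, 93.4 and 46.3 normalized counts with OVA, against 144, 175 and 73.4 with BSA (log2 -0.88, SE 0.33, adjusted p = 0.0904). The groups overlapped at 1 library each. Gbp7 was at 169, 334 and 129.7 normalized counts with OVA, against 304, 323 and 329 with BSA (log2 -0.71, adjusted p = 0.104), and OVA replicate 2 was the highest of the 6. Gbp2 was at 139, 175 and 60.2 normalized counts with OVA, against 283, 103 and 102 with BSA (log2 -0.34). The members' log2 differences had a median of -0.42, against 0.04 over all genes tested, and Gbp5 alone was above 0, at 0.24. On the recovered whole reads edgeR called Gbp8 (adjusted p = 0.0485) and 17.9% of all genes, and limma called Gbp4, Gbp7 and Gbp8 without OVA replicate 2 and Gbp8 without BSA replicate 3, in fits that called 23.8% and 7.52% of all genes. Conventional DC markers, with 5 of 7 detected, summed to 869 to 4780 CPM in these OVA libraries and 4049 to 5510 CPM in the BSA libraries, and the part of DC in these values was not tested.

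Other genes of the pathway were read from lists of known function. Their counts stand against 9.56% and 10.2% of all genes higher at 12 h and 24 h after OVA and CpG, 11.6% and 7.96% after CpG alone, 0.753% higher with OVA than with CpG alone at 12 h, 0.689% lower for the change in the OVA effect between the times, and 9.59% and 3.68% higher at 20 h after OVA and after BSA. Of the immunity-related GTPases, a family of smaller interferon-induced GTPases that also act at vacuoles in mice, 8 of 8 tested rose in each of the 4 time course comparisons with non-immunized DC and at 20 h after OVA and CpG, and 6 of 8 after BSA and CpG. Their median log2 change was 2.13 at 12 h and 2.99 at 20 h after OVA and CpG, against -0.03 and -0.01 over all genes tested. At 12 h, 5 of 8 were higher with OVA than with CpG alone, as Tgtp1 at 306 CPM against 133 CPM (log2 1.21, adjusted p = 0.00249) and Iigp1 at 559 CPM against 253 CPM (log2 1.16), and 5 of 8 had a lower OVA effect at 24 h than at 12 h. Of 12 interferon transcription factors, 9 rose at 12 h after OVA and CpG and 7 after CpG alone. Between these regimens at 12 h 0 differed by edgeR's test, and DESeq2 called 1. By edgeR 4 had an unadjusted p under 0.05, against 1213 of 9428 genes tested.

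Of 9 interferon receptor and kinase genes tested, 3 rose and 2 fell at 12 h after OVA and CpG. Socs1, a feedback inhibitor of the pathway, averaged 504 CPM after OVA and CpG at 12 h and 269 CPM after CpG alone, against 111 CPM in non-immunized DC, and was higher with OVA by 0.92 (adjusted p = 0.0152). Ifngr1, the ligand-binding chain of the interferon-gamma receptor, fell to 141 CPM after OVA and CpG at 12 h, against 303 CPM in non-immunized DC (log2 -0.88, adjusted p = 0.004). At 20 h Ifng averaged 45.3 CPM after OVA and CpG and 13.4 CPM after BSA and CpG, against 1.32 CPM in non-immunized DC (OVA log2 4.81, adjusted p = 0.0136). Of 10 inflammasome and pyroptosis genes, 6 rose at 12 h after OVA and CpG, among them Casp4, which encodes mouse caspase-11, the sensor of cytosolic lipopolysaccharide that GBPs help to activate, at 242 CPM against 40.2 CPM in non-immunized DC (log2 2.83). At 20 h 0 of 9 rose by edgeR's test or by DESeq2, 3 had an unadjusted p under 0.05, and Il18 fell (log2 -0.64, adjusted p = 0.0169). Of 7 prenylation enzymes, which attach the lipid by which some GBPs bind membranes, 0 passed at 12 h after OVA and CpG by edgeR's test or by DESeq2, and 0 had an unadjusted p under 0.05. Of 11 autophagy and ubiquitin genes, 2 rose and 1 fell at that time.

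Of the further loci of the family, Gbp11 and Gbp10 on chromosome 5 were tested in the time course. Gbp11 averaged 75.0 CPM after OVA and CpG at 12 h and 32.2 CPM after CpG alone, against 5.47 CPM in non-immunized DC, and rose by 3.96 and 2.74 on the log2 scale. Gbp10 passed at 24 h after CpG alone, at 18.7 CPM against 1.75 CPM (log2 3.57, adjusted p = 0.00604), and after OVA and CpG (log2 2.99, adjusted p = 0.025). Gbp2b was at 0 to 7.89 CPM and was not tested.

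The members followed one another across libraries to different degrees. In pairs that leave out Gbp8, Pearson's r of log2 CPM had a median of 0.938 over the 10 time course libraries, 0.851 over the 8 costimulation libraries and 0.757 over the 15 libraries of the 5-replicate experiment. In pairs with Gbp8 the medians were 0.859, 0.247 and 0.231, and the lowest was that with Gbp7 in the 5-replicate experiment, -0.114. The ranges overlapped in each experiment. Pairs without Gbp8 fell to 0.841, 0.305 and 0.165, and pairs with Gbp8 reached 0.969, 0.577 and 0.684. These r values share libraries, depth and the differences between groups and are descriptions only. Of 7169 genes ranked by their r with the mean profile of the members, averaged over the 3 DC experiments, the 10 most alike included Igtp (0.963), Ddx58 (0.951), Gm12250 (0.949), Tgtp2 (0.947), Irgm2 (0.942), Ifit2 (0.939), Ifi47 (0.938), Eif2ak2 (0.935) and Cd274 (0.934).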

How the data were processed

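RNA was measured in 39 libraries: 33 of lymph node DC in 3 experiments and 6 of CD4+ OT-II T cells. Per the labels' protocols, sorting followed a negative selection of DC, and polyA RNA was captured and amplified by in vitro transcription. The submitters' processing notes name HISAT 0.1.6, HOMER, bcl2fastq and mm9. The DC tables hold counts per gene, deposited by the authors, of which the first block of library columns was used. The T cell table, deposited by the authors, holds normalized counts (signal), which an earlier description of it gives as counts divided by size factors. At a tolerance of 0.01 reads, 100% of its values gave whole reads. This unit differed from the raw counts assumed when the test was chosen, so limma was used. Log2 fold changes and p-values of the authors' own comparisons, as deposited, were read only where named. 37 library columns were not used, 33 of a second block and 4 of 2 libraries of no sample.

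DC counts were tested with edgeR 4.0.16 (TMM, filterByExpr, quasi-likelihood F test, every library of an experiment in 1 fit), and T cells with limma 3.58.1 (trend) on log2(normalized count + 1), where 3 libraries or more reached 10 normalized counts. R was 4.3.3. P-values were adjusted over all genes of a comparison, with a threshold of 0.05 and intervals of 95%. CPM divides a count by the library's own total. The 4 experiments were normalized and tested apart. Scripts were tested on simulated data with 200 changed genes. Alternatives were DESeq2 1.42.0 and its size factors, other filters and pseudocounts, the replicate number as a block, the compared groups alone, each library left out, and a term for Y-linked transcripts, which was added after seeing the data. Members, gene lists and tests were chosen with earlier results of these data known. Besides the members, genes were named from the lists and by likeness to the members' mean profile, and 1 gene so chosen is not reported here. Total counts per library, 155088 to 2052904, limit the precision of low genes.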

Additional observations from a re-analysis of the deposited data

Results flagged for a closer look

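The change in the OVA effect between 12 h and 24 h was tested itself, and it passed for 4 members (background 0.689% of 9428 genes lower). This count was not stable when 1 library was left out, as described below. The log2 difference of OVA with CpG from CpG alone changed between 12 h and 24 h by -1.46 for Gbp7 (edgeR quasi-likelihood adjusted p = 0.00845), -1.26 for Gbp4 (adjusted p = 0.0126), -1.39 for Gbp6 (adjusted p = 0.0336) and -1.01 for Gbp9 (adjusted p = 0.0333). The groups hold 2 libraries each. In the 5-replicate experiment, 24 sets of 5 values, each member in each group, were examined by Dixon's criterion, and no library stood apart. Smaller groups, among them those of the time course, were not examined in this way.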

How the results depend on the processing

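Of 1437 alternative values of single members, 1288 kept direction and side of the threshold, and no called member changed direction. With 1 library left out, members called numbered 0 to 4 for OVA against CpG alone at 12 h, 1 to 6 for CpG alone at 24 h against 12 h, 0 to 6 for the change in the OVA effect, 0 to 1 for OT cells against none, 0 to 2 for OVA against BSA with OT cells, 1 to 4 for BSA against non-immunized DC, 0 to 1 for OVA against BSA at 20 h and 0 to 3 in T cells. With only the compared groups, 1 member was called for CpG alone at 24 h against 12 h and 3 for Cd80/86 -/- against wild type. With no filter 2 were called for OT cells against none and 1 for OVA against BSA with OT cells, and DESeq2 called 0 for OT cells against none. EdgeR on recovered reads called 1 in T cells. The cause was not tested.

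Whether samples with the same replicate number belong together is not settled here, and the main fits did not pair them. Deviations from group means correlated over 0.1 in 2 of 20 same-number pairs in the time course and 3 of 9 in the costimulation experiment. They did so in 4 of 15 pairs in the 5-replicate experiment and 1 of 3 in T cells. In the costimulation experiment the median r was 0.029, against -0.002 for other pairs, and the highest was 0.186. In groups of 2 libraries the deviations mirror each other, so these correlations cannot decide it. With the replicate block, 2 members were called for OT cells against none, 1 for BSA against non-immunized DC and 1 in T cells. For OVA against BSA with OT cells, the block gave log2 differences of -0.15 for Gbp2, -0.26 for Gbp4 and -0.18 for Gbp5. In that experiment BSA replicate 3 was the only library with its number, so the block took it up. This blocked comparison therefore rested on BSA replicate 1 alone and says nothing about pairing. All genes called under the block numbered 696 against 243 for OT cells against none, 48 against 0 for Cd80/86 -/- and 2 against 1 for OVA against BSA with OT cells.

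Uncalled directions turned as follows (log2, lowest to highest with 1 library left out). For OVA against CpG alone at 24 h, Gbp2 -0.41 to 0.13, Gbp3 -0.0022 to 0.54, Gbp5 -0.65 to 0.88, Gbp6 -0.52 to 0.0021 and Gbp8 -0.077 to 0.010. For 24 h against 12 h, Gbp5 -0.081 to 0.65 after CpG alone, and after OVA and CpG Gbp2 -0.48 to 0.077, Gbp5 -0.77 to 0.77 and Gbp7 -0.37 to 0.066. For the change in the OVA effect, Gbp5 -1.07 to 0.44. For Cd80/86 -/- against wild type, Gbp4 -0.043 to 0.47 and Gbp6 -0.056 to 0.51. For OVA against BSA with OT cells, Gbp2 -0.44 to 1.44, Gbp3 -0.16 to 1.24, Gbp4 -0.45 to 1.32, Gbp5 -0.29 to 1.93, Gbp6 -0.13 to 0.49, Gbp8 -0.63 to 1.04 and Gbp9 -0.15 to 1.19. For OT cells against none, Gbp3 -1.01 to 0.090 and Gbp8 -0.48 to 0.15. For OVA against non-immunized DC at 20 h, Gbp8 -0.040 to 0.21. In T cells, Gbp2 -0.65 to 0.15 and Gbp5 -0.39 to 0.65. With a mean of at least 1 CPM, Gbp8 was at 0.040 for OVA against BSA with OT cells, and on recovered reads Gbp5 was at -0.031 in T cells.

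All genes called also varied: for OVA against CpG alone at 12 h 469 with no filter and 413 with only the compared groups, against 232; at 24 h 29 by DESeq2, 240 with no filter, 453 without replicate 1 of CpG alone at 24 h and 8 with a mean of at least 1 CPM, against 0; for the change in the OVA effect 594 with no filter and 744 without that replicate, against 319. DESeq2 called 1015 against 1535 for CpG alone at 12 h, 795 against 1282 and 887 against 1332 for OVA and CpG at 12 h and 24 h, and, for 24 h against 12 h, 441 against 719 after CpG alone, where only the compared groups gave 242, and 519 against 839 after OVA and CpG. For OT cells against none, no filter gave 917 and only the compared groups 486, against 243. For OVA against BSA with OT cells, DESeq2 gave 12, no filter 227, only the compared groups 4 and 200 without BSA replicate 1, against 1. For Cd80/86 -/- against wild type, DESeq2 gave 48, no filter 303, a mean of at least 1 CPM 1 and only the compared groups 679, against 0. For OVA against BSA at 20 h no filter gave 2, against 0. Groups of 2 libraries, and few counts for Gbp6, limit these comparisons.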
